A study of Mus musculus with 8 samples.

Results

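The genotype difference shared by normal colon and colon tumors was measured by setting 4 arrays labelled caspase-12 deficient against 4 wild-type arrays, with tissue as a covariate, so that all 8 arrays of the series entered. Total RNA came from mice of the C57BL/6 strain in 4 groups of 2 arrays: normal colon of either genotype and tumors of either genotype. No other allele and no agent is named in the labels, which also do not give the form of the Casp12 deletion, how the tumors arose, the age and sex of the mice, the stretch of colon taken or the time of collection. Since the labels do not call the replicates separate animals, p-values reflect the spread between these arrays alone, and that spread may be technical.

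A probe was tested when its detection p was under 0.01 on at least 2 of the 8 arrays, which kept 13327 of 25697 probes and 9341 genes, each gene read from its brightest tested probe. Differences are deficient minus wild type in normalized log2 intensity, and a probe was called when the limma adjusted p (Benjamini-Hochberg over all probes tested) was under 0.05. Of 9341 genes tested, 494 were called (5.29%), 176 higher (1.88%) and 318 lower (3.4%) in deficient tissue. Over probes the count was 809 (6.07%), 215 higher (1.61%) and 594 lower (4.46%). Every one of these 809 probes differed in the same direction in both tissues, and on each of them the deficient arrays of a tissue were both above or both below its wild-type arrays. Arrays were separated in this way on 3177 probes in all (23.8%), called or not. The model with tissue as a covariate counts a gap between the 2 tissues' genotype differences as residual spread. It therefore favors probes that agree in sign and separation, and that agreement is no independent support for the calls. The median difference over all genes tested was 0.06. Where every array of a group was below background, the size of its normalized difference is not measured, and a lower bound on the fold ("at least") is given beside it.

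Caspase-12 is a member of the inflammatory caspases, a family that also holds caspase-1 and caspase-4 (the mouse protein long called caspase-11), and their genes lie side by side on chromosome 9. Caspase-1 cleaves the precursors of interleukin-1 beta and interleukin-18, and caspase-1 and caspase-4 cleave gasdermin D, whose fragment opens pores in the cell membrane. The colon lining is an epithelium renewed from dividing crypt cells, whose offspring become absorptive, mucus-secreting or hormone-secreting cells. Genes of salt transport, drug metabolism, position along the gut and the daily clock are all active in it.

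The shared difference was also set against the genotype differences within each tissue. In a model of the 4 group means, 292 probes (2.19%) were called between genotypes in normal colon and 2461 (18.5%) in tumors. Both tissues called 122 probes, of which 104 differed in the same direction (18 higher and 86 lower in deficient tissue, 70 genes) and 18 in opposite directions. The 104 probes were 35.6% of the normal colon calls and 4.23% of the tumor calls. Over all tested probes the sign agreed on 59.8%, and the differences in the 2 tissues, which share no array, had a correlation of 0.20 across probes, which are not independent replicates. Of the 809 probes called over both tissues, 127 were also called in normal colon, 640 in tumors and 146 in neither tissue alone.

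**Figure D1:**
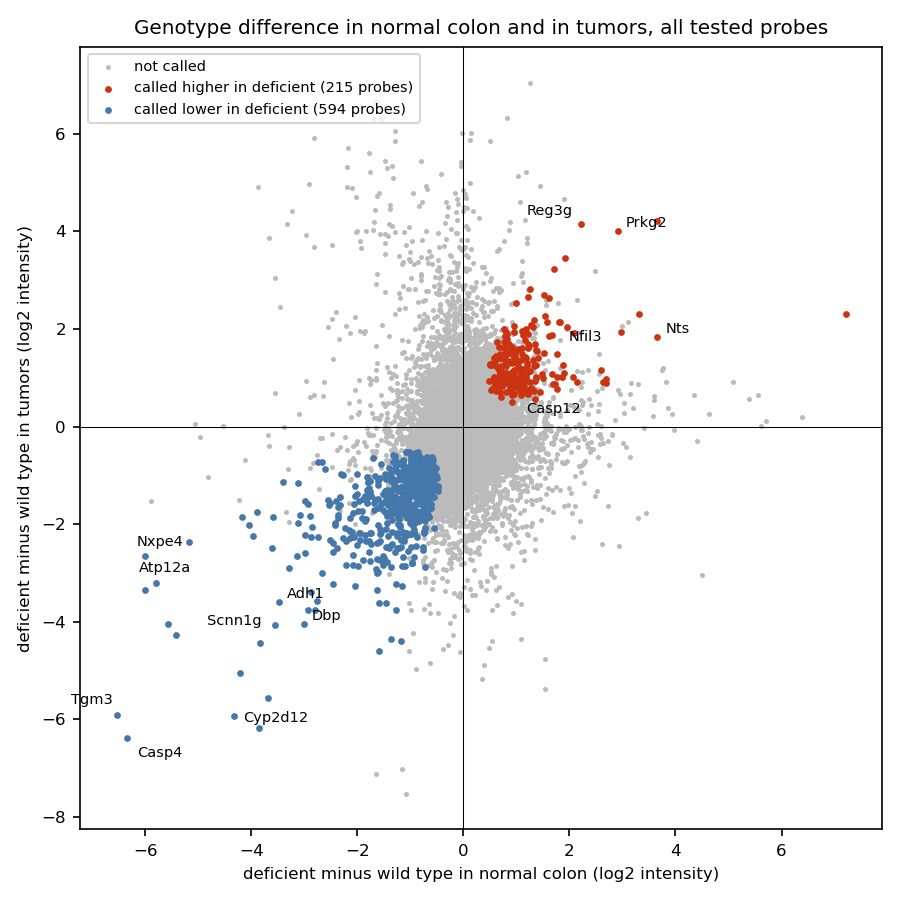
Each point is a tested probe, placed by its deficient minus wild type difference in normal colon (x axis) and in tumors (y axis), in log2 intensity. The 594 probes called lower over both tissues lie in the lower left quadrant and the 215 called higher in the upper right, with Casp4 and Tgm3 at the far lower left. Many uncalled probes differ in 1 tissue only or in opposite directions.

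Leaving out 1 array at a time changed how many probes were called. The sign of none of the 809 turned in these 8 fits. That outcome was fixed in advance, since the genotypes were separated in each tissue on all 809. The count was 636 without replicate 1 of deficient normal colon, 366 without replicate 2 of wild-type normal colon, 310 without replicate 1 of deficient tumors and 232 without replicate 2 of deficient tumors. It was 192 without replicate 1 of wild-type normal colon, 164 without replicate 1 of wild-type tumors, 124 without replicate 2 of wild-type tumors and 87 without replicate 2 of deficient normal colon. Tumor replicates were further apart than normal colon replicates, with an SD of the log2 difference between replicates of 0.709 in wild-type and 0.762 in deficient tumors against 0.475 and 0.480 in normal colon. Replicate 1 of deficient tumors carried skeletal muscle transcripts. Tnnc2, the fast muscle troponin C, read 14.44 there and between 4.83 and 8.99 on the other arrays. Squamous epithelium genes were high on replicate 1 of wild-type tumors and both deficient tumors, with a list level (log2 of the mean intensity of its 20 tested members) of 12.49, 12.31 and 13.67 against 7.13 on replicate 2 of wild-type tumors. Neither list holds a gene called higher, and the part of these cells in the shared difference was not tested.

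Casp12, the targeted gene, gave little signal. Its probe (ILMN_2989535, chromosome 9), with wild type given first here and in all such pairs of values, read 5.84 and 5.83 against 6.50 and 7.21 in normal colon and 5.73 and 5.88 against 6.97 and 5.96 in tumors. Background was exceeded on 0 of 4 wild-type and 2 of 4 deficient arrays. The deficient arrays lay above the wild-type arrays in both tissues, by 0.84 ± 0.27 (SE, limma adjusted p = 0.101), which did not pass. Whether the probe lies inside the deleted stretch is not stated, so it cannot serve as a check of the labels, and "deficient" below means arrays so labelled.

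Casp4, the neighbour of Casp12, gave the smallest adjusted p of all probes tested. On probe ILMN_2811737 it read 10.99 and 11.77 against 5.01 and 5.04 in normal colon and 11.52 and 11.16 against 4.87 and 5.03 in tumors. All 4 wild-type arrays were above background there and none of the deficient arrays was. The normalized difference was -6.37 ± 0.21 (SE, limma adjusted p = 1.83e-05), and set against the lowest signal above background the level was at least 26.6-fold lower, at least 23.7-fold in normal colon and at least 29.9-fold in tumors. This call held without any 1 array, with a highest adjusted p of 0.00055.

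The other Casp4 probes gave a different size. The brightest, ILMN_1254655, read between 10.47 and 11.15 in wild-type and between 9.27 and 10.01 in deficient tissue, a difference of -1.08 (adjusted p = 0.0379). ILMN_2811746 differed by -0.95 (adjusted p = 0.0292). Both stayed above background on all 4 deficient arrays. The call on the brightest probe was lost without any 1 array, with adjusted p up to 0.101 without replicate 2 of deficient tumors. Which transcripts each probe reads is not stated in the files.

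Casp1, the next gene in the cluster, had nearly equal levels in normal colon (14.12 and 14.41 in wild-type, 14.05 and 14.57 in deficient tissue) and lower levels in deficient tumors (13.12 and 13.26 against 14.24 and 14.23). Over both tissues it differed by -0.50 (adjusted p = 0.259) and was not called. Of 25 tested genes in a list of the chromosome 9 neighbours of Casp12, 1 was called lower (Casp4) and 0 were called higher. For all of chromosome 9 the share of genes called was 5.17%, against 3.57% on chromosome 7 and 6.93% on chromosome 1, the lowest and highest of the other autosomes. Fut4, the fucosyltransferase that builds the Lewis X sugar, lies 20 tested genes from Casp12 and was called lower (-2.01, adjusted p = 0.0267), a call lost without replicate 1 of wild-type normal colon, replicate 2 of deficient normal colon or either wild-type tumor array, up to an adjusted p of 0.0819.

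Il18, the precursor that caspase-1 matures, was lower in deficient tissue. It read 12.82 and 12.69 against 9.83 and 11.03 in normal colon and 11.80 and 12.49 against 10.44 and 10.64 in tumors. Every wild-type array lay above every deficient array, by 1.97 on average (3.91-fold, limma adjusted p = 0.0208). Without replicate 1 of wild-type normal colon, replicate 2 of deficient normal colon or replicate 2 of wild-type tumors this call was lost, with adjusted p up to 0.0687. Il1b, the other interleukin precursor, read 8.81 and 8.86 against 6.77 and 7.21 in normal colon and 10.11 and 7.51 against 12.82 and 12.81 in tumors, so that its differences had opposite signs (-1.85 and 4.01). It was no member of the shared set (1.08 over both tissues, adjusted p = 0.577), and its tissue difference was itself called (interaction adjusted p = 0.0271).

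Gsdmd, which encodes gasdermin D, read between 13.19 and 13.54 in wild-type and between 12.34 and 13.05 in deficient tissue, a difference of -0.77 (adjusted p = 0.0458). A second Gsdmd probe, ILMN_2752790, was dimmer and further apart: 10.97, 11.36, 11.20 and 11.32 on the wild-type arrays and 9.40, 9.54, 9.67 and 9.42 on the deficient arrays, a difference of -1.71 (adjusted p = 0.00491). Another dimmer Gsdmd probe, ILMN_2748928, differed by -0.95 (adjusted p = 0.0332). The call on the brightest Gsdmd probe was lost without any 1 array. The inflammatory caspase and inflammasome list, with 10 tested genes, had a median difference of -0.50. Of its genes 0 were called higher and 3 lower (Casp4, Il18 and Gsdmd), against 3.4% of all genes called lower. Without 1 array that count was 0 (without replicate 1 of wild-type normal colon, replicate 2 of deficient normal colon or replicate 2 of wild-type tumors) or 1 (without each of the others). The adaptor Pycard (-0.49, adjusted p = 0.54) and the DNA sensor Aim2 (0.39, adjusted p = 0.321) were not called.

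**Figure D2:**
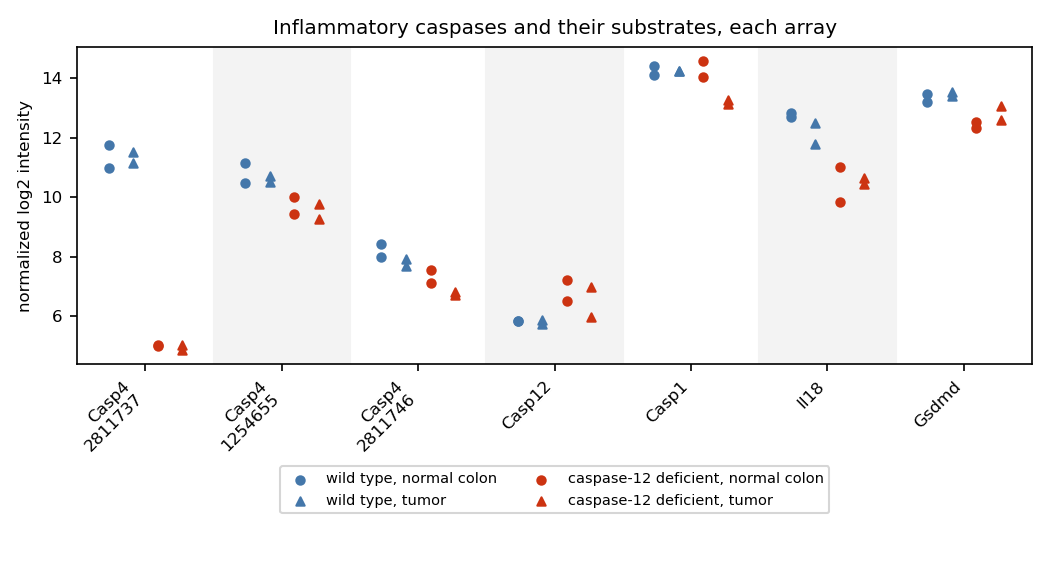
Normalized log2 intensity of 3 Casp4 probes (by probe number), Casp12, Casp1, Il18 and Gsdmd on each of the 8 arrays; circles are normal colon, triangles tumors, blue wild type and red deficient. The first Casp4 probe falls from between 10.99 and 11.77 to between 4.87 and 5.04 in deficient tissue, while the other Casp4 probes differ by -1.08 and -0.95.

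Genes of the circadian clock formed the list with the largest share of called members. The clock is a loop in which CLOCK and ARNTL (BMAL1) bind E-box DNA and switch on the Per and Cry genes, whose proteins block them in turn. The same E-boxes drive Dbp, Tef, Nr1d1 and Ciart, and NFIL3 opposes DBP and TEF at a shared DNA site. Of 16 tested members, 8 were lower in deficient tissue (Dbp, Tef, Per1, Per2, Per3, Nr1d1, Ciart and Usp2) and 1 was higher (Nfil3). All genes tested were called lower in 3.4% and higher in 1.88% of cases. The lists were chosen with earlier results of these data known, so setting a list against all genes is descriptive and no independent support. The list's median difference was -1.01. The time of day at which the tissues were taken is not stated, and its part in these differences was not tested.

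Dbp, a transcription factor with one of the widest daily swings of any clock output gene, read 13.77 and 12.75 against 9.71 and 10.77 in normal colon and 13.79 and 13.92 against 9.39 and 10.22 in tumors. No deficient array came near a wild-type array. The difference was -3.53 ± 0.38 (SE, 11.6-fold, limma adjusted p = 0.0097). Its relative Tef read between 10.86 and 11.71 in wild-type and between 9.06 and 9.85 in deficient tissue, a difference of -1.86 (adjusted p = 0.0103).

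The Period genes, whose proteins form the repressing arm of the loop, were lower too. Per2 read 11.27 and 11.003 against 9.50 and 8.87 in normal colon and 12.47 and 11.80 against 9.82 and 9.81 in tumors, a difference of -2.13 (adjusted p = 0.0097). In both tissues the lower wild-type array exceeded the higher deficient array. Per1 differed by -1.09 (adjusted p = 0.0146). Per3 was above background on 4 of 4 wild-type and 0 of 4 deficient arrays and was at least 2.76-fold lower (adjusted p = 0.0103).

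Ciart, a repressor of CLOCK and ARNTL, was lower in both tissues. It read 10.08 and 9.10 against 6.27 and 6.63 in normal colon and 9.69 and 10.32 against 7.18 and 7.52 in tumors. Its difference was -2.90 (adjusted p = 0.00491), and it was called in each tissue alone, at least 6.86-fold lower in normal colon (adjusted p = 0.00849) and by -2.66 in tumors (adjusted p = 0.00662). Nr1d1, the nuclear receptor REV-ERB alpha that represses Arntl, differed by -2.09 (adjusted p = 0.0217). Usp2, a deubiquitinase under clock control, differed by -1.47 (adjusted p = 0.0448).

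Nfil3, which opposes DBP, moved the other way. It read 8.04 and 8.49 against 10.43 and 9.74 in normal colon and 8.80 and 7.98 against 10.32 and 10.74 in tumors. The deficient arrays exceeded every wild-type array, by 1.98 (3.95-fold, adjusted p = 0.0141). The activators themselves were not called: Clock differed by 0.33 (adjusted p = 0.308), Npas2 by 0.14 (adjusted p = 0.827) and Arntl by 0.40 (adjusted p = 0.466), with Arntl at 1.10 in normal colon and -0.30 in tumors. Cry2 (-0.84, adjusted p = 0.0532), Nr1d2 (-0.93, adjusted p = 0.086), Bhlhe40 (-0.50, adjusted p = 0.283) and Rora (0.48, adjusted p = 0.308) were not called.

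The clock calls were among the more stable. Dbp, Tef, Per2, Per3, Ciart and Nfil3 were called in all 8 fits that left out 1 array. Per1 was lost without replicate 2 of deficient normal colon (adjusted p = 0.0513), Nr1d1 without either wild-type tumor array, replicate 1 of wild-type normal colon or replicate 2 of deficient normal colon (up to 0.0644), and Usp2 without any array but replicate 2 of wild-type normal colon (up to 0.116). The number of members called lower was 5 without replicate 2 of deficient normal colon, the lowest of the 8 fits, and 8 without replicate 2 of wild-type normal colon, the highest.

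**Figure D3:**
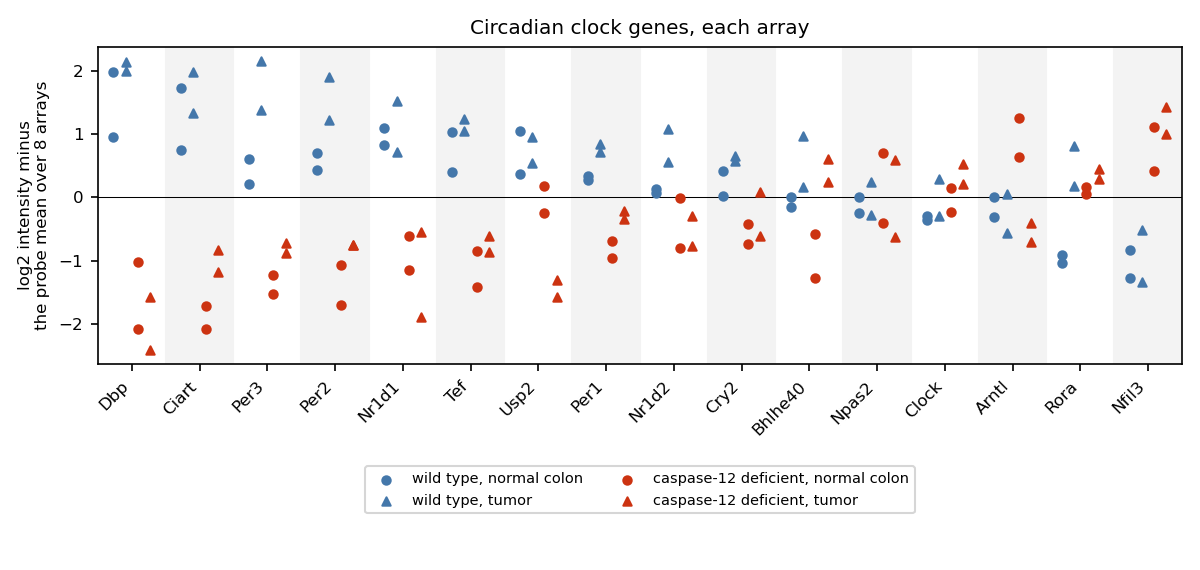
The 16 tested circadian clock genes, ordered by their difference, on each of the 8 arrays as log2 intensity minus the probe's mean over the arrays. From Dbp to Per1 the red deficient arrays lie below the blue wild-type arrays within each tissue, while on Nfil3 they lie above; Clock, Arntl and Npas2 overlap between the genotypes in at least 1 tissue.

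The E-box is the site that CLOCK and ARNTL bind, and the RefSeq sequence before the gene start (GRCm38.p6) was searched for it to show where it stands. The motif CACGTG, which reads the same on both strands, lay within 250 bases before an annotated start in 3 of the 8 called clock genes with an entry (Ciart, Per1 and Tef), and in 6.86% of all 27025 genes with an entry. Per2 had no entry. The stretches around the motif run 5′ to 3′ on the strand of the gene, with the E-box in capitals. They come from chr3:95882242-95882369 (minus strand) for Ciart, chr11:69098758-69098813 (plus strand) for Per1, and chr15:81802521-81802576 and chr15:81811251-81811306 (plus strand) for Tef, which has an entry for each of 2 starts.
Ciart: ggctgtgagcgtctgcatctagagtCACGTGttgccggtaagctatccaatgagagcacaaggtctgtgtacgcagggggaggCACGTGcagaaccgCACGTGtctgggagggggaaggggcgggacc
Per1: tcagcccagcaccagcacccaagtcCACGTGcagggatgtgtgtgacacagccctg
Tef, first start: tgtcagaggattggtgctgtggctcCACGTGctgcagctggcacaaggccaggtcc
Tef, second start: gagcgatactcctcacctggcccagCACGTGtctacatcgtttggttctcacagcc
Ciart held 3 copies, at 116, 58 and 44 bases before its start, and the others 1 copy each. The D-box TTATGTAA, the site shared by DBP, TEF and NFIL3, was found on either strand in 1 of the 8 genes (Per3), against 0.977% of all genes. The ROR element core AGGTCA, which NR1D1 binds, was found on either strand in 2 (Nfil3 and Per1), against 15.8% of all genes. A match describes these letters and is not evidence of binding.

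The genes with the largest negative differences were products of varied kinds, among them enzymes, a sodium channel subunit, a proton pump and a hormone. Genes were ranked by the smaller of the normalized differences in normal colon and in tumors, among called genes with arrays apart in both tissues. The 12 lowest were Tgm3, Cyp2d12, Mptx1, Cyp2c67, B3gnt7, Sycn, Cyp2d9, Scnn1g, Adh1, Insl5, Atp12a and Dbp. Tgm3, a transglutaminase that cross-links proteins, read 12.04 and 10.996 in wild-type normal colon and 10.74 and 12.07 in wild-type tumors. In deficient tissue it read 5.11, 4.86, 5.24 and 5.76, below background on all 4 arrays. It was at least 28.6-fold lower (normalized difference -6.22, limma adjusted p = 0.000477), and called in each tissue alone.

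Several genes of ion and solute transport were called in each tissue alone. Scnn1g, the gamma subunit of the epithelial sodium channel that takes up sodium in the distal colon, read 8.64 and 8.56 against 5.15 and 4.96 in normal colon and 10.45 and 10.44 against 6.26 and 6.49 in tumors. Wild-type replicates nearly coincided, and the difference was -3.81 ± 0.17 (SE, adjusted p = 0.00014). Of the deficient arrays 1 was above background, in tumors; the fold was at least 3.45 in normal colon and 16.8 in tumors. Atp12a, the colonic proton and potassium pump, read 13.69 and 12.97 against 7.46 and 7.59 in normal colon and 14.31 and 14.21 against 11.23 and 10.89 in tumors. It differed by -4.50 (adjusted p = 0.0103), with a larger difference in normal colon (-5.81) than in tumors (-3.20; interaction adjusted p = 0.0211).

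Slc15a1, the proton-coupled peptide transporter, was above background on all 4 wild-type and none of the deficient arrays and was at least 3.82-fold lower (adjusted p = 0.000477). Slc6a8, the creatine transporter, differed by -1.85 (adjusted p = 0.00355). Best2, a bestrophin anion channel of colonic goblet cells, differed by -2.84 (adjusted p = 0.00491), at least 4.79-fold in normal colon. These transporters and Scnn1g were called in all 8 fits that left out 1 array, as was Atp12a. Capn13, a calpain protease (-2.61), and Sh3d21 (-2.41), both at an adjusted p of 0.00355, and Olfr165, an odorant receptor (at least 3.53-fold lower, adjusted p = 0.00269), were also called in each tissue and in all 8 of those fits.

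Adh1, the alcohol dehydrogenase that oxidizes ethanol and retinol, read 14.84 and 14.05 against 10.84 and 11.10 in normal colon and 14.97 and 14.98 against 10.99 and 11.76 in tumors. The genotypes were far apart in both tissues, by -3.54 ± 0.24 (SE, 11.6-fold, adjusted p = 0.00111). A second probe gave -4.13 (adjusted p = 0.00094).

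Cytochrome P450 genes of families that oxidize drugs and dietary compounds were also among the lowest. Cyp2d12 read 12.34 and 12.10 against 7.32 and 8.48 in normal colon and 11.89 and 12.92 against 5.82 and 7.13 in tumors. The lowest wild-type array stood above the highest deficient array, and the difference was -5.13 ± 0.48 (SE, 34.9-fold, adjusted p = 0.00491). Cyp2c67 differed by -4.63 (adjusted p = 0.0103), Cyp2d9 by -4.62 (adjusted p = 0.0165) and Cyp2d10 by -2.53 (adjusted p = 0.0292). The Cyp2d genes resemble each other closely in sequence, and how far their probes read each other was not tested. The call on Cyp2d9 was lost without replicate 1 of wild-type tumors (adjusted p = 0.0512), and that on Cyp2d10 was kept without replicate 2 of either normal colon group and lost without each other array, up to 0.0838 without replicate 2 of wild-type tumors. Of the 27 tested genes of the xenobiotic metabolism list, 3 were called lower (Cyp2c67, Cyp2d9 and Cyp2d10) and 0 higher, against 3.4% and 1.88% of all genes. In the same list 17 genes differed in opposite directions in the 2 tissues. Cyp2c55, for example, was 1.54 higher in deficient normal colon and -5.37 in deficient tumors. Without replicate 1 of wild-type tumors 1 of the 27 was called lower.

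Mptx1, a mucosal pentraxin, was at -4.85 (adjusted p = 0.0141) although its wild-type normal colon replicates read 12.96 and 9.84. B3gnt7, a glycosyltransferase that lengthens sugar chains on glycoproteins, was at -4.80 (adjusted p = 0.0141), with deficient tumors at 5.41 and 8.35. In deficient normal colon both were below background, at least 24.1-fold lower for Mptx1 and at least 15.7-fold lower for B3gnt7. Both calls were lost without replicate 2 of deficient normal colon, at adjusted p of 0.0513 and 0.0525. Sycn, the secretory granule protein syncollin, showed the widest spread of the 12, with 14.85 and 14.30 against 10.19 and 11.25 in normal colon and 14.63 and 15.58 against 6.02 and 11.83 in tumors. Its difference of -5.02 (adjusted p = 0.0451) was called without either deficient tumor array and lost without each of the others, with adjusted p up to 0.122 without replicate 2 of wild-type tumors.

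Insl5, a peptide hormone of colonic enteroendocrine cells, read 12.82 and 12.54 against 6.30 and 7.05 in normal colon and 9.07 and 11.41 against 4.99 and 8.78 in tumors. The tumor groups lay close to overlap, and the difference of -4.68 (adjusted p = 0.0332) was called without replicate 2 of deficient tumors and lost without each of the others, up to an adjusted p of 0.0973 without replicate 2 of wild-type tumors. In bulk samples such as these, fewer cells of a type and less RNA per cell cannot be told apart.

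**Figure D4:**
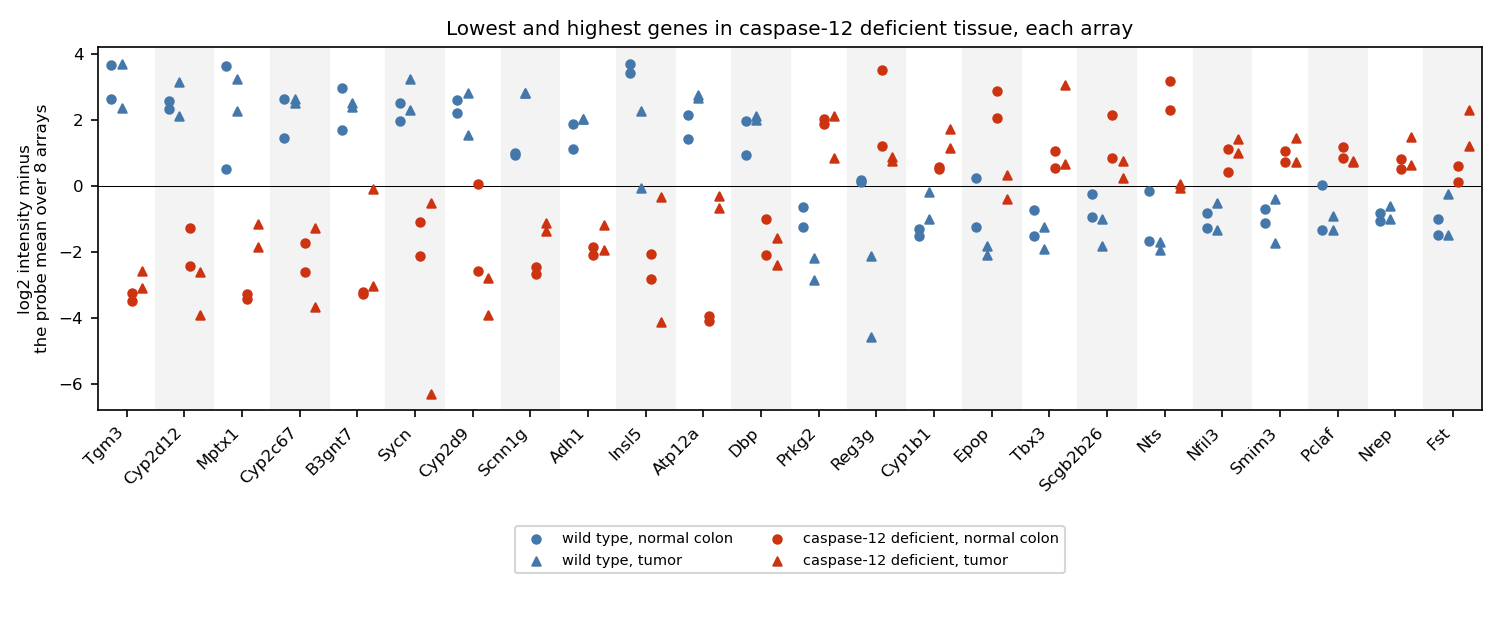
The 12 lowest genes (left) and 12 highest genes (right) by the smaller of the 2 tissue differences, on each of the 8 arrays as log2 intensity minus the probe's mean over the arrays. Genes entered only if called and with the genotypes apart in each tissue. Spread is wide in Sycn, Insl5 and Reg3g and narrow in Scnn1g and Adh1.

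Broader epithelial lists held few called members, where 3.4% of all genes were called lower and 1.88% higher. Over all tested probes the sign agreed between the tissues on 59.8%, in either direction. Of 22 tested absorptive colonocyte genes, 2 were called lower (Atp12a, and Ceacam20, a brush border adhesion molecule, at -1.93 with an adjusted p of 0.0217) and 0 higher, although 14 were negative in both tissues and the list's median was -0.19 in normal colon and -2.46 in tumors. The water channel Aqp8, for example, was at -1.16 in normal colon and -7.01 in tumors and was not called over both (adjusted p = 0.0709). Without 1 array the count was 3 without replicate 2 of wild-type normal colon, 4 without replicate 1 of deficient normal colon, and 1 without replicate 2 of deficient normal colon, either wild-type tumor array or replicate 2 of deficient tumors. Without those last 4 the Ceacam20 call was lost, up to an adjusted p of 0.0613. Of 11 goblet cell genes, 1 was called lower on its brightest probe, Clca1 (-2.49, adjusted p = 0.0217), a secreted protein of mucus. A dimmer probe of Muc13 was also called lower (-1.41, adjusted p = 0.0294), and a dimmer probe of Muc4 was not called (-1.68, adjusted p = 0.121). Clca1 read between 14.60 and 15.88 in wild-type and between 10.96 and 14.06 in deficient tissue, without overlap. The call was lost without replicate 2 of deficient normal colon or either wild-type tumor array, with adjusted p up to 0.0644.

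Fewer genes were called higher than lower in deficient tissue, and over probes the called differences were smaller. Called or not, the arrays were apart the same way in both tissues on 1089 genes higher (11.7%) and 1047 lower (11.2%). The median difference was 1.11 over the 215 probes called higher and -1.27 over the 594 called lower. By the ranking used for the lowest genes, the 12 highest were Prkg2, Reg3g, Cyp1b1, Epop, Tbx3, Scgb2b26, Nts, Nfil3, Smim3, Pclaf, Nrep and Fst. Prkg2, the cyclic GMP-dependent protein kinase II that relays guanylin signals to chloride secretion, read 8.59 and 8.00 against 11.13 and 11.29 in normal colon and 7.06 and 6.38 against 11.36 and 10.09 in tumors. All deficient arrays stood above all wild-type arrays, by 3.46 ± 0.37 (SE, adjusted p = 0.00965), and Prkg2 was called in each tissue alone and in all 8 fits that left out 1 array.

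Cyp1b1, a cytochrome P450 induced through the aryl hydrocarbon receptor, was below background on all 4 wild-type arrays and above it on all 4 deficient arrays, at least 1.83-fold higher (adjusted p = 0.0103). Nts, the gut hormone neurotensin, read 6.37 and 7.92 against 10.35 and 11.24 in normal colon and 6.34 and 6.10 against 8.11 and 7.98 in tumors. Its deficient arrays lay above the wild-type arrays of the same tissue, by 2.74 (adjusted p = 0.0248; at least 2.83-fold in tumors, where wild type was below background), and the call was lost without replicate 2 of deficient normal colon or either wild-type tumor array. Reg3g, an antibacterial lectin of the gut lining, read 9.92 and 9.99 against 11.02 and 13.32 in normal colon and 5.22 and 7.68 against 10.68 and 10.55 in tumors. It was 3.19 higher (adjusted p = 0.0423) with replicates of a group up to 2.46 apart in wild-type tumors, and it was called without replicate 1 of deficient normal colon and lost without each of the others, up to an adjusted p of 0.108 without replicate 2 of deficient tumors.

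Tbx3, a T-box transcription factor, was 2.69 higher (adjusted p = 0.0376). Its highest value, 12.99, was on replicate 1 of deficient tumors, the array with the muscle transcripts, against 10.58 on replicate 2. It was called without replicate 1 of deficient tumors and lost without each of the other arrays, up to an adjusted p of 0.103 without replicate 2 of wild-type tumors. Epop, a partner of the Polycomb complex, was 2.46 higher (adjusted p = 0.0217; at least 3.60-fold in tumors), Fst, the activin antagonist follistatin, 2.12 (adjusted p = 0.0274; at least 1.24-fold in normal colon), and Cd44, the hyaluronan receptor and a Wnt target, 1.90 (adjusted p = 0.0163). The Cd44 call was lost without replicate 2 of deficient normal colon (adjusted p = 0.0587), and that on Epop without the same array (adjusted p = 0.0654) or either wild-type tumor array. The Fst call was kept without replicate 1 of deficient tumors and lost without each of the others, up to 0.0644 without replicate 2 of wild-type tumors. Cd44 was the 1 called gene among 13 tested Wnt targets. Among all genes 1.88% were called higher, so this count does not set the list apart. Of the 13, 11 differed in opposite directions in the tissues, while over all tested probes the sign agreed on 59.8%. The other 4 tested probes of Cd44, all dimmer, differed by 0.56 to 1.56 and were not called.

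Genes of cell division mostly had positive differences, with few calls. Of 18 tested cell cycle genes, 16 had a positive difference in both tissues, 4 were called higher (Cdk1, Birc5, Mcm6 and Pcna) and 0 lower, and the median difference was 0.89. Among all genes 1.88% were called higher. Over all tested probes the sign agreed between the tissues on 59.8%, in either direction, and the share positive in both was not counted. Cdk1, the kinase that starts mitosis, read 8.94 and 9.90 against 10.34 and 10.28 in normal colon and 9.17 and 8.99 against 10.30 and 10.56 in tumors. Each deficient array exceeded each wild-type array, by 1.12 (2.17-fold, limma adjusted p = 0.0393). Birc5 (survivin) was 1.30 higher (adjusted p = 0.0448), Mcm6, a subunit of the replicative helicase, 0.88 (adjusted p = 0.0429), and Pcna, the sliding clamp, 0.81 (adjusted p = 0.0495). The list had 0 called members in 7 of the 8 fits that left out 1 array and 6 in the fit without replicate 2 of wild-type normal colon. It had 0 with array weights, 1 with no filter on dim probes and 9 of 15 with probes detected on all 8 arrays, and in the other settings without a replicate block 5 to 13. On the other 2 tested probes of Birc5 the difference was 0.73 and 0.57, and neither was called.

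Pclaf, a factor that binds PCNA, was among the 12 highest genes at 1.77 (adjusted p = 0.0234). Of 4 further mitotic genes, picked after their values were seen, Kif11, the spindle motor, differed by 1.47 (adjusted p = 0.0108), Cenpk, a kinetochore subunit, by 1.51 (adjusted p = 0.0148), Pbk, a mitotic kinase, by 1.56 (adjusted p = 0.0199) and Nusap1, a spindle protein, by 1.30 (adjusted p = 0.0249). Kif11 was called in all 8 fits that left out 1 array, and Cenpk was lost without replicate 2 of deficient normal colon (adjusted p = 0.0513). Without either wild-type tumor array or that array the calls on Pclaf, Pbk and Nusap1 were lost, up to 0.0757 for Nusap1. Without replicate 2 of deficient tumors those on Pclaf and Nusap1 were lost, without replicate 1 of wild-type normal colon those on Pbk and Nusap1, and without replicate 1 of deficient tumors that on Nusap1.

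B lymphocyte genes had negative differences in both normal colon and tumors. Of 11 tested B and plasma cell genes all 11 were negative in both tissues. Over all tested probes the sign agreed on 59.8%, in either direction, and the share negative in both was not counted. The calls were 2 lower and 0 higher, against 3.4% and 1.88% of all genes. The median difference was -1.37, but -0.79 with no background correction and -0.75 with the deposited values. Only 1 of the 11 was above background on all 8 arrays. Fcmr, the receptor for the tail of IgM, read 6.91 and 8.21 against 5.18 and 5.01 in normal colon and 10.85 and 11.74 against 8.91 and 8.52 in tumors. Within each tissue the genotypes did not overlap, and the difference was -2.52 (adjusted p = 0.0128). Deficient normal colon was below background, so the fold there was at least 1.68, and in tumors it was 5.97. Cd79b, a signalling chain of the B cell receptor, differed by -1.52 (adjusted p = 0.0284; at least 2.39-fold in normal colon), and its second probe by -2.11 (adjusted p = 0.0319). The Fcmr call was lost without replicate 2 of deficient normal colon (adjusted p = 0.051), and the Cd79b call was kept without replicate 1 of wild-type normal colon and lost without each of the others, up to 0.0823 without replicate 2 of wild-type tumors.

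The level of this list (log2 of the mean intensity of its tested members) was 7.48 and 9.15 against 6.44 and 6.85 in normal colon and 8.99 and 9.92 against 7.77 and 7.90 in tumors. Wild-type arrays were higher in each tissue, and replicate 1 of wild-type normal colon lay nearer to the deficient arrays than to replicate 2. The count called was 5 without replicate 1 of wild-type normal colon, 0 without replicate 2 of deficient normal colon and 1 without each of the other 6 arrays. MHC class II genes, which B cells and other antigen-presenting cells carry, were negative in both tissues for 9 of 9 tested members, with a median of -0.60. Over all tested probes 59.8% had the same sign in both tissues, in either direction. H2-Oa, a chain of the B cell regulator of peptide loading, was the 1 called (-1.44, at least 1.72-fold lower, adjusted p = 0.0422), a call kept without replicate 1 of wild-type normal colon and lost without each other array, up to an adjusted p of 0.11 without replicate 2 of deficient tumors. It was also lost with no background correction (0.0628), a larger offset (0.0505), the deposited values (0.0743), no filter on dim probes (0.07) and array weights (0.0617), which left 0 of the list called. The T cell list had 0 of 8 members called and the macrophage list 0 of 13.

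Because caspase-12 has been studied at the endoplasmic reticulum, genes of its stress response were counted. Of 15 tested, 2 were called lower and 0 higher, against 3.4% and 1.88% of all genes, and the median was -0.20. Edem1 and Herpud1 both serve the degradation of misfolded proteins. Edem1 read between 8.36 and 8.74 in wild-type and between 6.49 and 7.63 in deficient tissue (-1.49, adjusted p = 0.0237), and Herpud1 between 13.92 and 14.59 and between 13.04 and 13.80 (-0.93, adjusted p = 0.0387). The chaperone Hspa5 (0.02, adjusted p = 0.967) and the stress factor Ddit3 (-0.17, adjusted p = 0.744) were not called. The list count was 0 without replicate 2 of deficient normal colon, either wild-type tumor array or replicate 2 of deficient tumors, which each ended the Edem1 call (up to 0.0729), and it was 1 without either wild-type normal colon array or replicate 1 of deficient tumors. The Herpud1 call was lost without any 1 array (adjusted p up to 0.0965 without replicate 2 of deficient normal colon), although its second probe was also called (-1.06, adjusted p = 0.0218).

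Other lists gave 1 or 2 calls each. Among all genes 3.4% were called lower and 1.88% higher, and counts this small do not set a list apart from those shares. Among 13 apoptosis genes, Mcl1, a survival factor of the BCL2 family, was lower (-0.92, adjusted p = 0.0323). Psmb8, an immunoproteasome subunit, was the 1 of 18 interferon-stimulated genes called (-1.27, adjusted p = 0.0415), and Nsdhl, an enzyme of cholesterol synthesis, the 1 of 12 in its list (-1.25, adjusted p = 0.0264). These counts rest on the brightest probe of each gene. Dimmer probes of Gbp2 (-1.96, adjusted p = 0.0208) and Sqle (-1.41, adjusted p = 0.0143) were called lower, and that of Oasl2 was not (-1.37, adjusted p = 0.0781). Of the dimmer Nsdhl probes, ILMN_2594521 (-1.17) and ILMN_2594525 (-1.12) were called and ILMN_2958207 (-0.34, adjusted p = 0.184) was not. Of 16 fatty acid oxidation and PPAR alpha targets, Acot1, an acyl-CoA thioesterase, was higher (1.32, adjusted p = 0.0398; its second probe 0.45, adjusted p = 0.459) and Acadl, the long-chain dehydrogenase, lower (-1.01, adjusted p = 0.0491). Lpl, lipoprotein lipase, was the 1 called of 6 adipocyte genes (1.50, adjusted p = 0.0416). The adipocyte marker Adipoq read between 5.29 and 5.60 in wild-type tissue and 5.93, 9.52, 8.22 and 6.30 in deficient tissue, and the part of fat in the Lpl difference was not tested. Psmb8 was called in 0 of the 8 fits that left out 1 array. Mcl1, Nsdhl and Acadl were called in 1, without replicate 1 of deficient normal colon, and Acot1 and Lpl in 1, without replicate 2 of deficient tumors. Their highest adjusted p values were 0.11 for Psmb8 and 0.0797 for Nsdhl without replicate 2 of wild-type tumors, 0.0915 for Mcl1 and 0.122 for Acadl without replicate 2 of deficient tumors, 0.0963 for Acot1 without replicate 1 of wild-type tumors, and 0.103 for Lpl without replicate 2 of deficient normal colon.

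Eno3, the muscle enolase, was the 1 called of 9 skeletal muscle genes, and lower (-3.04, adjusted p = 0.0436). It read 12.97 and 12.55 against 8.89 and 9.42 in normal colon and 12.05 and 13.18 against 11.82 and 8.45 in tumors. Its high deficient value was on replicate 1 of deficient tumors, the array with the muscle transcripts. The call was kept without that array and lost without each of the others, up to an adjusted p of 0.115 without replicate 2 of wild-type tumors. Cela1, a pancreatic elastase, was called lower (-1.53, adjusted p = 0.0228), and none of the other 3 tested pancreas genes was called. The Cela1 call was lost without replicate 1 of wild-type normal colon, replicate 2 of deficient normal colon or either wild-type tumor array, up to 0.0732.

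Of 15 tested genes that mark position along the gut, 1 was called higher (Hoxd9) and 3 lower (Hoxa13, Insl5 and Sycn), and the other 11 were not called. Among all genes 1.88% were called higher and 3.4% lower. Hoxa13, the homeobox gene of the hindmost gut, read 8.98 and 8.76 against 6.15 and 6.53 in normal colon and 9.17 and 8.59 against 7.03 and 7.60 in tumors. It was lower in deficient tissue without overlap (-2.04, adjusted p = 0.0141; at least 4.15-fold in normal colon), a call lost without replicate 2 of deficient normal colon (adjusted p = 0.0513). Hoxd9, expressed further forward, was higher (1.79, adjusted p = 0.0338), by at least 4.11-fold in normal colon, where wild type was below background, and 1.86-fold in tumors. Without replicate 2 of deficient normal colon 0 were called, without replicate 1 of deficient tumors 2 higher and 2 lower, and without each of the other arrays 0 higher and 1 to 3 lower. The Hoxd9 call was kept only without replicate 1 of deficient tumors, up to an adjusted p of 0.0885 without replicate 2 of deficient normal colon. Hoxb6, Hoxb7 and Osr2 were higher by 4.62 to 6.39 in deficient normal colon (adjusted p between 0.00166 and 0.00805) and by 0.19 to 0.92 in tumors, and so were not called over both tissues. Hoxb6 and Hoxb7 were below background in wild-type normal colon, so the normalized size is not measured for them. The stretch of colon taken is not given, and its part in the shared differences was not tested.

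**Figure D5:**
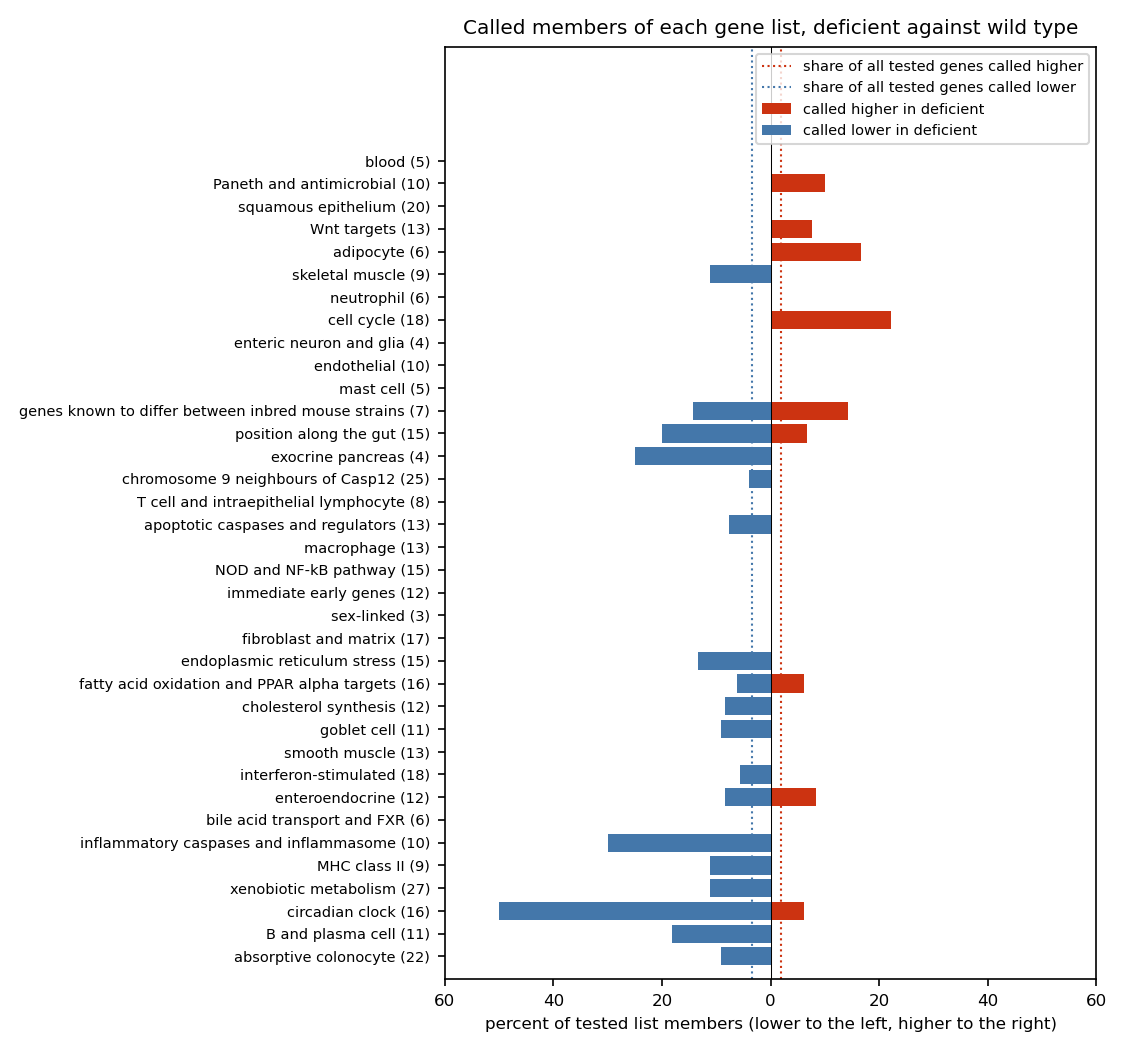
Percent of the tested members of each gene list called higher (red, to the right) or lower (blue, to the left) in deficient tissue, with the number tested in brackets and dotted lines at the share of all genes called (1.88% higher and 3.4% lower). The clock list reaches 8 of 16 lower, followed by the inflammasome list at 3 of 10, and lists are ordered by their median difference.

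No member was called in the lists for NOD and NF-kB signalling, macrophages, neutrophils, mast cells, T cells, bile acid transport, fibroblasts, smooth muscle, endothelium, enteric neurons and glia, squamous epithelium, blood, immediate early genes and sex-linked genes. Over all probes in the same limma fit 3522 had an unadjusted p under 0.05. Among 7 tested genes known to differ between inbred strains, Entpd4 was lower (-0.82, adjusted p = 0.0292) and Fgfbp3 higher (0.86, adjusted p = 0.04). Of all genes 3.4% were called lower and 1.88% higher, and 1 call in each direction does not set the list apart from those shares. The Fgfbp3 call was lost without any 1 array, and the Entpd4 call was kept only without replicate 1 of deficient normal colon. Both were weakest without replicate 1 of wild-type normal colon, at adjusted p of 0.101 and 0.0829.

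At the edge of the threshold, Cenpn (0.96, adjusted p = 0.0498) and Traf3ip2 (-0.68, adjusted p = 0.0499) lay just inside it, and Cdca2 (1.10, adjusted p = 0.0501) and Tspan1 (-1.36, adjusted p = 0.0504) just outside. Probes differed in how often they were called. Among the brightest probes of their genes 1.88% were called higher and 3.4% lower, and among the 3230 other tested probes 0.805% and 7.46%. Of 129 called genes with at least 2 tested probes, 55 had another probe that was not called or, in 1 gene, of opposite sign.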

How the data were processed

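Total RNA labelled with Cy3 was hybridized to Illumina arrays, 2 per group. Per the file headers, the deposited non-normalized table gives 25697 probes, each with its intensity and its detection p-value on every array. The submitters' processing notes name BeadStudio 3.2.7. The deposited series table holds log2 values, which were the same intensities divided by each array's mean (largest gap 1.7e-05), and was used as an alternative only. The mean intensity per array was 1112.5 to 1181.52, and 43.7% to 49.1% of probes were above background (detection p under 0.01). The number of arrays limits the precision. Of the probes, 23978 carried 1 gene symbol in the platform annotation and 1719 none.

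Intensities were background corrected, quantile normalized and put on the log2 scale with neqc (offset 16) in limma 3.58.1 under R 4.3.3. An additive model of tissue and genotype gave the shared difference (5 residual and 2.97 prior degrees of freedom), and a model of the 4 group means gave the difference within each tissue and the interaction (4 and 3.55). All tests were two-sided and moderated (lmFit and eBayes), with p-values adjusted by Benjamini-Hochberg over the 13327 probes tested. The procedure was checked on simulated data. A fold given as "at least" sets the group that is above background on no array at the lowest signal above background, or its own where higher.

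The genes named were Casp12, the 12 highest and 12 lowest separated genes by the smaller tissue difference (leaving out predicted genes and clone names), up to 12 called in each tissue alone, neighbours of Casp12, Casp1, Casp4, Il1b and Il18, up to 4 members of each described list, and 2 on each side of the threshold. Clock genes outside that rule, such as Tef and Nr1d1, and others that complete a list's count, were added after their values were seen. The members and lists were chosen with earlier results of these data known. No columns of sample values were left unused. The alternatives were other background corrections, normalizations and probe filters, the deposited values, array weights, an intensity trend, the replicate number as a block, a group-means model and leaving out each array. Replicate numbers were not taken as pairs. Same-numbered arrays deviated together with correlations from -0.03 to 0.16, which, with 2 arrays per group, cannot tell whether they share an animal. List counts under each setting were added after seeing the data.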

Additional observations from a re-analysis of the deposited data

Results flagged for a closer look

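For 7 genes called over both tissues, the size of the genotype difference itself differed between tumors and normal colon, with the same sign in both (limma interaction, adjusted p between 0.00837 and 0.0401 over all 13327 probes, of which 521 were called). The value given is the tumor difference minus the normal colon difference. It was 3.37 for Nxpe4 (at least 45.6-fold lower in normal colon and 6.27-fold in tumors), 2.60 for the pump gene Atp12a (-5.81 and -3.20 on the log2 scale) and 2.33 for the phospholipase gene Pla2g4f (at least 16.2-fold and 3.61-fold), all lowered more in deficient normal colon. It was -2.16 for the potassium channel gene Kcnk5 (-0.73 and -2.88), -2.99 for the sulfate transporter gene Slc26a2 (2.56-fold and at least 9.27-fold) and -2.03 for Clic5 (3.01-fold and at least 8.54-fold), all lowered more in deficient tumors. Hoxd9, higher in deficient tissue, gave -1.79 (at least 4.11-fold and 1.86-fold). Where a fold is given as "at least", 1 group was below background and the size of the value is not measured; in these 5 genes the bound exceeded the fold in the other tissue. Groups of 2 arrays were not examined for single arrays that stand apart.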

How the results depend on the processing

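The main counts were 215 probes higher and 594 lower over both tissues, 292 called in normal colon, 2461 in tumors and 521 for the interaction. Leaving out 1 array, these ranged from 9 to 114 higher, 78 to 522 lower, 38 to 470 in normal colon, 1116 to 2082 in tumors and 23 to 1141 for the interaction. With 1 array left in a group, that group is assumed to vary like the others. A model of group means called 822 higher and 1330 lower, since it takes the interaction out of the residual spread. With the replicate number as a block, 104 were called higher and 358 lower (462 in place of 809). The labels do not say whether same-numbered arrays share an animal. In normal colon 193 were called with no filter on dim probes, 144 with probes detected on all 8 arrays, 641 with array weights and 624 from the 4 arrays of that tissue alone. In tumors 1441 were called with array weights and 765 from the 4 arrays alone. For the interaction 297 were called with no filter and 329 with probes detected on all 8 arrays. The causes of these shifts were not tested. The other settings kept every count within 1.5 times. Of the 809 calls, none turned sign in any setting. For the fits without 1 array the separation of the arrays fixed this in advance. Among genes not called, Il1b ranged from -0.0255 (without replicate 2 of wild-type tumors, where its sign turned) to 1.75 over the fits without 1 array, and Npas2 from -0.11 (without replicate 1 of deficient normal colon; also -0.08 without replicate 1 of deficient tumors) to 0.41. Among named genes, the calls on Acadl, Acot1, Birc5, Casp4 (brightest probe), Cdk1, Cenpn, Cyp2d10, Eno3, H2-Oa, Hoxd9, Insl5, Lpl, Pcna, Psmb8, Reg3g, Sycn, Tbx3 and Usp2 were lost with no filter on dim probes, those on Acadl, Birc5, Cdk1, Cenpn, H2-Oa, Mcm6, Pcna, Sycn and Usp2 with array weights, those on Acadl, Cenpn, Fgfbp3, H2-Oa and Traf3ip2 with the deposited values, and those on Gsdmd and Traf3ip2 with cyclic loess. The block left 0 cell cycle genes called. The headers give no slide, so slide as a block was not run. Differences of probes near background are limited by signal.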

Other observations

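In many lists most members differed in opposite directions in the 2 tissues, and 3 of them are given here as values outside the shared set. Over all tested probes the sign agreed on 59.8%. All 6 tested neutrophil genes were of opposite sign, with a median of -2.19 in normal colon and 4.43 in tumors. Of 13 smooth muscle genes 12 were of opposite sign (medians 0.41 and -1.33), and of 13 Wnt targets 11 (medians -0.61 and 3.45).

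Some called probes carry no gene symbol. ILMN_3118071 read 4.98 and 5.05 in wild-type and 12.37 and 12.07 in deficient normal colon, and 5.60 and 4.95 against 7.69 and 7.48 in tumors (at least 9.24-fold higher over both, since it was above background on no wild-type array; limma adjusted p = 0.0284). ILMN_2633091 was lower, at 9.39 and 9.58 against 6.37 and 7.07 in normal colon and 9.67 and 9.86 against 5.49 and 6.90 in tumors (-3.17, adjusted p = 0.00981).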
